A study of Mus musculus with 8 samples.

Results

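The leukemic spleen described here came from mice that expressed CBFb-SMMHCd179-221, a shortened form of a leukemia fusion protein. Its members are the 4 arrays whose labels give this genotype, out of 8 arrays in the series, and they were chosen by genotype label alone. They came from 2 chimeric animals sampled 3 weeks after birth, animal 1 with 1 array and animal 2 with 3 arrays. The other 4 arrays, from mice with full-length CBFb-SMMHC taken 2 months after the mutagen ENU, enter no comparison below. The labels call the truncated mice chimeras, so host cells without the fusion may have been present, and the share of cells that carried it is not given. Total RNA of spleen cells was read on Affymetrix mouse arrays. Values are log2 signals, given as mean ± SD over the 2 animals, with the arrays of animal 2 averaged first. With 2 animals no test was made, and the number of arrays limits the precision.

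CBFb is the subunit of core-binding factor that does not bind DNA itself and that stabilises the RUNX proteins on their sites, which lie in many blood cell genes. In acute myeloid leukemia with the inversion that creates the fusion, CBFb is joined to the coiled-coil tail of smooth muscle myosin heavy chain, and the fusion holds RUNX1 tightly. The residues missing from CBFb-SMMHCd179-221 contribute to that tight hold. The mouse spleen makes red cells, megakaryocytes and granulocytes early in life beside its lymphocytes and macrophages, so RNA of the whole organ can hold all of these.

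The 4 arrays did not group by animal. Arrays 2 and 3 of animal 2 were nearly alike, with r = 0.997 over all probe sets and 2 genes at least 1 log2 unit apart among 11278 genes above the median of all probe sets. Array 1 of animal 2 lay closest to the array of animal 1, with r = 0.987 and 92 such genes. It differed from arrays 2 and 3 of its own animal at 666 and 679 genes, with r = 0.976 in both cases. The correlations are over probe sets, which are not independent replicates, and they describe the arrays only. Whether the arrays of animal 2 were separate extractions is not given in the labels. All 4 array values therefore stand below in the order animal 1, then arrays 1, 2 and 3 of animal 2. The animal numbers are those of the labels and could not be checked. Each mean ± SD takes them as given, and the SD hides the gap inside animal 2.

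Of 18193 named genes, 10118 (55.6%) had a mean above 5.20. That level is the 95th percentile of 145 genes of families with no known use in spleen, such as olfactory and taste receptors and crystallins, and it is called the background level below. Those families had a median of 3.48, against 5.64 for all genes and 11.2 at the 99th percentile. Counts of genes above the background level below stand beside the 55.6% of all genes. A value under the level was not read as absence, because the table gives no detection calls. Probe sets differ in how strongly they bind, so ranks are ranks of probe signal and not of transcript number. In RNA of a whole organ, fewer cells of a type and less RNA per cell cannot be told apart.

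**Figure D1:**
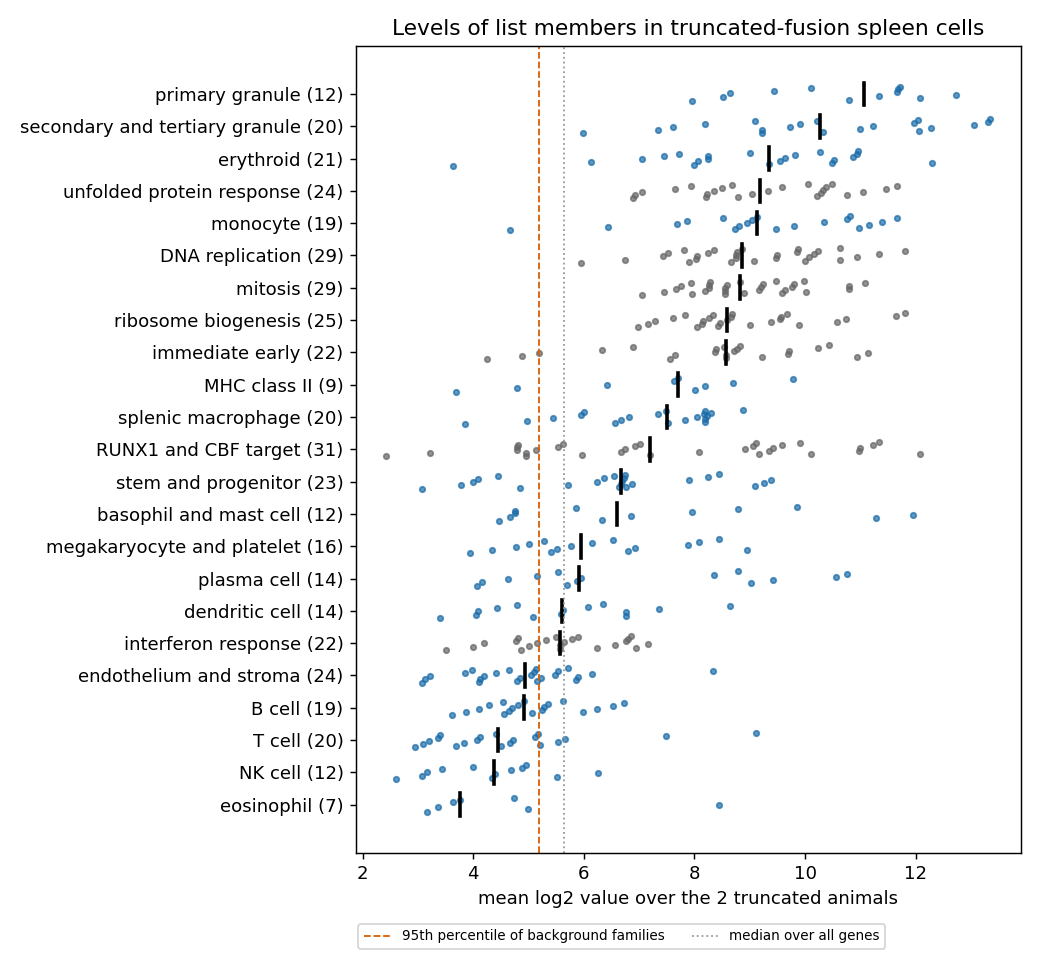
Mean log2 value over the 2 truncated animals (x axis) of each measured member (points, blue for lineage lists and grey for function lists) of the gene lists on the y axis, with the number measured in brackets. Black bars are list medians, from 11.06 for primary granule genes to 3.76 for eosinophil genes; the dashed line is the background level of 5.20 and the dotted line the median of all genes.

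The brightest named genes were those of the protein synthesis machinery, the cytoskeleton and the neutrophil granules. Ribosomal protein genes made up 35 of the 100 brightest, and the 58 measured had a median of 12.59. Tpt1, the translationally controlled tumor protein, was first at 13.56 ± 0.11, and Actb, cytoplasmic actin, followed at 13.55 ± 0.08. Neutrophil genes stood among these housekeeping genes. S100a8, a subunit of the calcium-binding protein calprotectin, measured 13.35, 13.29, 13.38 and 13.38 (rank 6). Its partner S100a9 measured 13.26, 13.42, 13.32 and 13.35. The chitinase-like protein gene Chil3 measured 13.13, 12.95, 13.01 and 13.03. None of these 3 genes varied by more than 0.2 over the arrays, and the probe set of S100a8 is of a kind that can match related sequences. Srgn, the granule proteoglycan serglycin, measured 12.73 ± 0.12, and Car2, a carbonic anhydrase of red cells and other cells, 12.30 ± 0.06.

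Primary granule genes, which are made in promyelocytes, had the highest median of the lineage lists. It was 11.06, and 11.04, 11.09, 11.43 and 11.50 on the single arrays. All 12 measured members lay above the background level, beside 55.6% of all genes. Mpo, the myeloperoxidase that forms hypochlorous acid, measured 11.92, 12.22, 12.21 and 12.29. Prtn3, proteinase 3, measured 11.66, 11.58, 11.82 and 11.88. Ctsg, the serine protease cathepsin G, measured 11.29, 11.45, 11.31 and 11.40. These 3 granule genes were level on all arrays. Elane, neutrophil elastase, was not: it measured 9.36 and 9.30 on the animal 1 array and array 1 of animal 2, but 11.62 and 11.70 on arrays 2 and 3 of animal 2. Ms4a3, a membrane protein of granulocyte and monocyte progenitors, ran the same way, with 9.05, 9.20, 10.11 and 10.20. Cst7, a cystatin that inhibits cathepsins, measured 8.24, 8.65, 9.25 and 9.29. These were the 3 of 12 primary granule genes with a range of at least 1 log2 unit over the arrays, and such a range occurred in 1210 of 11278 genes (10.7%).

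The promoters of Mpo, Elane and Ctsg are shown because these genes carry the granule profile, together with those of 3 more proteases and 2 MHC class II genes that parted the arrays as described further on. These 8 genes were chosen after their values were seen. The sequences are the 250 bases before each gene's start in RefSeq on GRCm38.p6, 5′ to 3′ along the gene, and all 8 genes matched the table by symbol. Capitals mark TGTGGT, the core that RUNX proteins bind, GAGGAA, a core bound by PU.1, and CTGATTGG, the Y box of MHC class II promoters, on either strand.
Mpo (chr11:87793534-87793783, plus strand): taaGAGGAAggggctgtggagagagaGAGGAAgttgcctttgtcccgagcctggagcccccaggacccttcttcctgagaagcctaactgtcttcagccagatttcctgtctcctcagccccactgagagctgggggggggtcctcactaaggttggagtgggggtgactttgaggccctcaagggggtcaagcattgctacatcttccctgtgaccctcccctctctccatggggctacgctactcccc
Elane (chr10:79886062-79886311, plus strand): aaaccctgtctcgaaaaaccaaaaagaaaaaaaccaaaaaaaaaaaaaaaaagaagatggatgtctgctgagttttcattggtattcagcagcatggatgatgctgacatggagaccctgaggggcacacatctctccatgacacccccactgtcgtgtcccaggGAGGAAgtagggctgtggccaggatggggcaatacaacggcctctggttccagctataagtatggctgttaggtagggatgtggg
Ctsg (chr14:56102575-56102824, minus strand): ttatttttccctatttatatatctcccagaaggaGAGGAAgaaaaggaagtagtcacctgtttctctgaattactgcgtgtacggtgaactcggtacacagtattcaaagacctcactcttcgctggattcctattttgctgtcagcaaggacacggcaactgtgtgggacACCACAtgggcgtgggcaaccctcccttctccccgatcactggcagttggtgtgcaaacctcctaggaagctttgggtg
Mcpt1 (chr14:56017714-56017963, plus strand): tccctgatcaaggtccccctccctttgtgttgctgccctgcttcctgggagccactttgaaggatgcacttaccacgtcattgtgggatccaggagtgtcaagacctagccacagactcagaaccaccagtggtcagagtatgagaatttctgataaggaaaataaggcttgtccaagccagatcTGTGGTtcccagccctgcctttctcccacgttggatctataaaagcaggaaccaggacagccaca
Mcpt8 (chr14:56085198-56085447, minus strand): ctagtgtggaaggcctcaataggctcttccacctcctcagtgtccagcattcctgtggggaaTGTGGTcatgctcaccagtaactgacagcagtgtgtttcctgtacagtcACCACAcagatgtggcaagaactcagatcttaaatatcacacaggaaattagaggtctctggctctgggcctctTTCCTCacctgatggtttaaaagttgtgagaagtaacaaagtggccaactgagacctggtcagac
Gzmb (chr14:56262335-56262584, minus strand): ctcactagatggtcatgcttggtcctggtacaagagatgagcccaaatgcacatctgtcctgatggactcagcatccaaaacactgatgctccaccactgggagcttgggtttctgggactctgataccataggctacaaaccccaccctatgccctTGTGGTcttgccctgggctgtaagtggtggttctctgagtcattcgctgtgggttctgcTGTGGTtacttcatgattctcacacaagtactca
H2-Aa (chr17:34287824-34288073, minus strand): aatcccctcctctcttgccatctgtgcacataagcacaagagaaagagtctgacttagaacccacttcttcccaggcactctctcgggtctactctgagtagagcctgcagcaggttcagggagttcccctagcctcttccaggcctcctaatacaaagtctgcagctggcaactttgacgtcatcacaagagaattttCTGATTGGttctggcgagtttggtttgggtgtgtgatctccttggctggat
H2-Eb1 (chr17:34305617-34305866, plus strand): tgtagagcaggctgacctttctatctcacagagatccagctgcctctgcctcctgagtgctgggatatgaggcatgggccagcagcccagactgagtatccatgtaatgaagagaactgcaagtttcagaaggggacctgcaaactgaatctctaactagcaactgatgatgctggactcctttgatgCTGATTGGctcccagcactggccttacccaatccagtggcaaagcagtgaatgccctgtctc
The GAGGAA core contains GGAA, which many other ETS factors also bind, and no marked match overlaps another. Mpo held GAGGAA at 247 and 224 bases before its start, counted to the base of the match nearest the 5′ end, and Elane held it at 85. Ctsg held TGTGGT on its opposite strand at 79 bases and GAGGAA at 216. Over 27025 promoters of the same length, 14.2% held TGTGGT, 23.1% held GAGGAA and 4.07% held CTGATTGG. Searches for the GATA core AGATAA and the C/EBP core TTGCNNAA, which 10.3% and 9.55% of promoters held, gave no match in the 8. Among the primary granule genes with a promoter in the table, GAGGAA stood in 7 of 12 and TGTGGT in 4 of 12. A match describes letters in the window and shows no binding.

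Secondary and tertiary granule genes, which mark the later myelocyte and neutrophil stages, were nearly as bright, with a median of 10.27. All 20 measured members lay above the background level, beside 55.6% of all genes. Ngp, neutrophilic granule protein, measured 12.08, 12.02, 12.73 and 12.73. Ltf, the iron-binding lactoferrin, measured 11.03, 11.20, 11.54 and 11.56. Camp, the antimicrobial cathelicidin, measured 10.91, 10.66, 11.29 and 11.32. All 3 were highest on arrays 2 and 3 of animal 2, by less than 1 log2 unit. The list median was highest on the animal 1 array instead, with 10.48, 10.15, 10.15 and 10.18. Mmp8, neutrophil collagenase, measured 9.23, 9.57, 9.11 and 9.01. At the late end of the series, Cxcr2, the chemokine receptor of mature neutrophils, was lower at 7.95, 8.0, 6.99 and 6.80, and Mmp9, gelatinase B, measured 7.34 ± 0.05. Padi4, which citrullinates histones in neutrophils, was the dimmest member and measured 5.50, 5.38, 7.26 and 6.79.

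Monocyte genes had a median of 9.13, and 18 of 19 lay above the background level, beside 55.6% of all genes. F13a1, a coagulation factor chain made by monocytes, measured 11.26, 11.34, 10.88 and 10.89. Csf1r, the receptor of macrophage colony-stimulating factor, measured 11.36, 11.22, 10.28 and 10.28. Ccr2, the chemokine receptor of inflammatory monocytes, measured 9.01, 9.66, 10.16 and 9.94. The defining receptors thus ran in opposite directions over the arrays. Fn1, fibronectin, had the widest range of the list with 10.60, 10.64, 8.20 and 8.16. Cx3cr1, the fractalkine receptor of patrolling monocytes, stayed at 4.66 ± 0.18, under the background level, and Ly6c2 was not analysed here.

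Splenic macrophage genes were dimmer, with a median of 7.51 and 18 of 20 members above the background level, beside 55.6% of all genes. Vcam1, an adhesion protein of red pulp macrophages and stroma, measured 8.64, 8.80, 9.32 and 9.26. Cd5l, a secreted macrophage protein, measured 8.22, 8.34, 8.38 and 8.41, and the complement gene C1qa 8.11, 8.27, 8.24 and 8.28. Slc40a1, the iron exporter ferroportin, was as even, with 8.20, 8.34, 8.08 and 8.08. Other members were less even: 5 of the 19 above the median of all probe sets (26.3%, beside 10.7% of all such genes) had a range of at least 1, of which 4 were lower and 1 higher on arrays 2 and 3 of animal 2. Marco, a scavenger receptor of marginal zone macrophages, had the widest range of the list. It measured 8.91 and 8.11 on the animal 1 array and array 1 of animal 2, and 4.48 and 4.77 on the other arrays, both under the background level. Dendritic cell genes had a median of 5.60, with 8 of 14 (57.1%) above the background level, near the 55.6% of all genes. Of their defining markers, Flt3, a growth factor receptor, measured 6.55, 6.58, 7.08 and 7.30, whereas the transcription factor gene Zbtb46 stayed at 5.08 ± 0.12. Itgax, an integrin chain also called CD11c, measured 3.75, 4.27, 6.65 and 6.55, and so lay above the background level on arrays 2 and 3 of animal 2 alone.

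Basophil and mast cell genes were split between very bright and dim members. Of 12 measured, 8 lay above the background level, beside 55.6% of all genes, and the median was 6.59. Cpa3, the carboxypeptidase of mast cell and basophil granules, measured 11.92, 11.67, 12.18 and 12.13 and ranked among the brightest genes of any lineage. Ms4a2, the beta chain of the high-affinity IgE receptor, measured 11.61, 11.58, 10.60 and 10.69. Its alpha chain gene Fcer1a measured 9.48, 9.78, 7.29 and 7.24. Both receptor chains were thus lowest on arrays 2 and 3 of animal 2. Hdc, the enzyme that makes histamine, ran the other way with 9.55, 9.20, 10.63 and 10.61. Of the mast cell proteases in this list, the chymases Cma1 (4.76 ± 0.44) and Mcpt4 (4.46 ± 0.16) and the tryptases Tpsb2 (4.75 ± 0.20) and Tpsab1 (4.66 ± 0.03) had means under the background level. Mcpt1 and Mcpt2, which are not in the list, did not, as the next paragraph gives. Prss34, a basophil protease and a defining marker, was not analysed here. Of the eosinophil genes, Siglecf, a sialic acid-binding receptor, measured 9.04, 8.88, 7.34 and 7.30. The 4 defining markers Prg2, Epx, Ccr3 and Il5ra had means under the background level, from 3.16 to 4.73. Prg2 measured 4.28, 4.10, 5.64 and 5.80, and so lay above that level on arrays 2 and 3 of animal 2 alone.

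A number of protease genes of mast cells, neutrophils and cytotoxic cells, such as Ctsg and Gzmb, stand in a cluster on chromosome 14, and this set was chosen after its values were seen. Of 13 measured genes, 5 (38.5%) lay above the background level, beside 55.6% of all genes. Mcpt1, a mucosal mast cell protease, measured 9.37, 9.49, 5.02 and 5.38. Mcpt2 measured 8.0, 8.30, 4.85 and 5.24, and the basophil protease Mcpt8 measured 7.47, 7.65, 5.48 and 5.54. Gzmb, granzyme B of cytotoxic cells, was turned the other way with 4.83, 4.39, 8.14 and 8.13. Ctsg, in the same cluster, was level on all arrays, as given above. In the promoters printed above, Mcpt1 held TGTGGT at 65 bases before its start, Mcpt8 at 188 and 139 (with GAGGAA at 65), and Gzmb at 93 and 34, so the match was present in genes that ran in opposite directions. The mast cell proteases are close in sequence, and signal may be shared between them.

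Erythroid genes had a median of 9.35, and 20 of 21 lay above the background level, beside 55.6% of all genes. The list median was 9.74 and 9.53 on the animal 1 array and array 1 of animal 2, and 8.40 and 8.44 on arrays 2 and 3 of animal 2. Alas2, the first enzyme of heme synthesis in red cells, measured 11.18, 11.34, 8.40 and 8.35. Rhag, a membrane protein of the Rh complex, measured 10.43, 10.73, 8.49 and 8.44. Slc4a1, the anion exchanger band 3, measured 9.74, 9.53, 7.74 and 7.56. Of the 20 erythroid genes above the median of all probe sets, 8 (40.0%, beside 10.7% of all such genes) had a range of at least 1, and 7 of these were lower on arrays 2 and 3 of animal 2. Other members of the list moved less. Epor, the erythropoietin receptor, measured 8.14, 8.39, 8.31 and 8.35, and Car1, a carbonic anhydrase, 10.91, 10.97, 10.70 and 10.75. Hba-a1, an alpha globin gene, measured only 3.64 ± 0.21 by its 1 probe set with a unique name.

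Megakaryocyte and platelet genes had a median of 5.95, with 12 of 16 above the background level, beside 55.6% of all genes. Gp5, a platelet glycoprotein, was brightest with 9.10, 9.21, 8.61 and 8.60. Itga2b, the integrin of platelets and their precursors, measured 7.89, 7.90, 8.44 and 8.50. Pf4, platelet factor, measured 7.54, 7.05, 5.93 and 5.98. Rab27b, a small GTPase of platelet granule release, was turned the other way, with 7.14, 7.39, 9.24 and 9.21. Of the 13 members above the median of all probe sets, 6 had a range of at least 1, beside 10.7% of all such genes, of which 4 were higher and 2 lower on arrays 2 and 3 of animal 2.

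Stem and progenitor genes had a median of 6.67, with 17 of 23 above the background level, beside 55.6% of all genes. The brightest were transcription factor genes, led by Myb at 9.40, 9.54, 9.34 and 9.22 and Gata2 at 9.43, 9.39, 8.91 and 8.94. The surface markers parted the arrays in opposite ways. Kit, the receptor of stem cell factor, measured 6.63, 7.62, 9.92 and 9.96. Cd34, a sialomucin of progenitors and endothelium, measured 7.48, 7.37, 5.46 and 5.23. Kit was thus at its highest where Cd34 was at its lowest. Hoxa9, a homeodomain gene of myeloid progenitors, measured 7.12, 7.07, 6.42 and 6.31, and Meis1 stayed at 4.45 ± 0.21. Sox4 was highest on array 1 of animal 2 alone, with 6.31, 7.79, 5.54 and 5.89.

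B cell and plasma cell genes were higher on arrays 2 and 3 of animal 2 by their list medians. In the B cell list, 8 of 19 genes lay above the background level, beside 55.6% of all genes, and the medians by array were 4.66, 4.42, 5.48 and 5.51. Cd79b, a signalling chain of the B cell receptor, measured 6.49, 6.61, 7.13 and 7.16. Ms4a1, which encodes CD20, measured 3.53, 3.93, 6.41 and 6.31, and Pax5, the B lineage factor, stayed at 4.55 ± 0.15. Pou2af1, a coactivator in B and plasma cells, measured 3.72, 3.67, 7.43 and 7.27. In the plasma cell list, 10 of 14 genes lay above the background level, 8 of them on all 4 arrays, and the medians by array were 5.51, 5.46, 7.59 and 7.63. Ighm, the IgM heavy chain, measured 7.75, 7.02, 13.11 and 13.15. Jchain, which joins IgM and IgA into polymers, measured 3.56, 3.32, 10.85 and 10.81, with the widest range of any named gene, 7.53. Mzb1, a chaperone of antibody assembly, measured 5.29, 5.34, 7.02 and 7.05. The plasma cell markers Ighm, Jchain and Mzb1 were thus all highest on arrays 2 and 3 of animal 2. Sdc1 was highest there too, by a smaller margin, with 4.81, 5.34, 5.42 and 5.78. Its mean of 5.16 ± 0.50 lay under the background level, but each array of animal 2 lay above it. Xbp1, given below with the transcription factors, was also highest on arrays 2 and 3 of animal 2, by a small margin. The part of these cells in the differences between arrays was not tested.

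T cell and NK cell genes were dimmer still. Of 20 T cell genes, 5 lay above the background level, beside 55.6% of all genes. Among them was Lat, an adaptor that mast cells, megakaryocytes and T cells use, at 8.49, 8.74, 10.20 and 10.27. Cd3e, of the T cell receptor complex, measured 5.45, 5.78, 5.82 and 6.05, whereas Cd3g measured 3.37 ± 0.21. Of 12 NK cell genes, 2 lay above the level, and the defining markers Ncr1, Gzma and Prf1 did not. Nkg7, a membrane protein of cytotoxic granules, measured 5.42, 5.40, 8.0 and 7.88. It had the same order over the arrays as Gzmb. Among genes of endothelium and stroma, 8 of 24 lay above the level, with Cxcl12, a chemokine of stromal cells, brightest at 8.33 ± 0.33.

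Among 532 genes of transcription factor families, 314 (59.0%) had a mean above the background level, beside 55.6% of all genes. The AP-1 genes came first: Fos measured 10.67, 10.72, 12.01 and 12.07, and Jun measured 10.13, 10.80, 12.23 and 12.24. Both were more than 1 log2 unit higher on arrays 2 and 3 of animal 2. Xbp1, the factor of the unfolded protein response, followed with 10.58, 10.84, 11.00 and 11.02. Jund, Atf4, Tfdp1 and Ikzf1 came next, with means from 10.44 to 9.81. Several factors of the erythroid and megakaryocyte program also stood among the 20 brightest. Tal1 measured 9.65, 9.88, 9.65 and 9.68, and its paralog Lyl1 measured 9.64, 9.41, 9.08 and 9.13. Gata1, the erythroid master regulator, measured 9.76, 9.61, 9.18 and 9.19, and Nfe2, a factor of globin and platelet genes, measured 9.51, 9.78, 9.54 and 9.67. Klf1, a globin gene activator, measured 10.26, 9.83, 8.62 and 8.59. For Lyl1, Gata1 and Klf1 the arrays fell into the same pairs as for Alas2. Of these factors, Klf1 alone had a range of at least 1.

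Of the myeloid factors, Spi1, which encodes PU.1, measured 10.06, 9.33, 8.49 and 8.56. Cebpb, the C/EBP factor of emergency granulopoiesis, measured 9.77, 9.64, 8.07 and 8.03, and Cebpa, which granulocyte commitment needs, 6.95, 7.73, 7.34 and 7.30. Irf8, a monocyte and dendritic cell factor, measured 8.32, 8.28, 8.95 and 8.90. Spi1 and Cebpb were thus lowest on the arrays where Elane was highest. Hhex, a homeodomain factor of early blood progenitors, measured 8.99, 9.59, 10.06 and 10.02. By family, bZIP genes held 6 of the 20 brightest places. Above the background level lay 32 of 40 bZIP genes and 26 of 82 homeodomain genes, beside 55.6% of all genes. Of 350 transcription factor genes above the median of all probe sets, 50 (14.3%) had a range of at least 1 and 41 had a range of at most 0.2, beside 10.7% and 13.1% of all such genes. The widest included Hlf, a PAR bZIP factor of stem cells, with 7.41, 8.30, 4.78 and 5.11, and Fosb, an AP-1 subunit, with 6.54, 6.98, 9.69 and 9.62. The steadiest included Tcf4, an E protein, which stayed between 7.33 and 7.38.

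**Figure D2:**
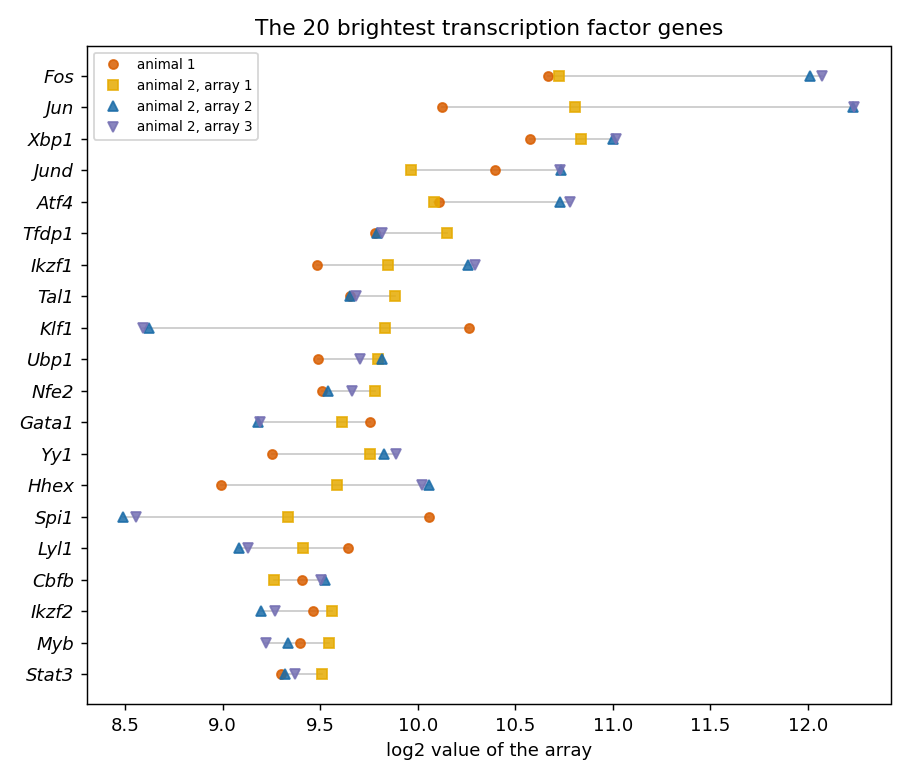
Log2 value on each of the 4 truncated arrays (x axis) for the 20 brightest transcription factor genes (y axis, by mean); symbols stand for arrays and grey lines for their range. Fos and Jun lie near 12 on arrays 2 and 3 of animal 2 and lower on the other arrays, whereas Klf1 and Spi1 lie lower on those arrays.

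The genes of the fusion and its RUNX partners varied by less than 1 log2 unit. Cbfb measured 9.41, 9.27, 9.53 and 9.50 and ranked among the 20 brightest factor genes. Runx1, the DNA-binding partner, measured 6.95, 6.97, 7.11 and 7.20 by its brightest probe set, and Runx3 measured 6.08, 5.67, 5.87 and 5.97. Myh11, the smooth muscle myosin gene, measured 3.84 ± 0.32, under the background level. Whether the probe sets of Cbfb and Myh11 read the fusion transcript is not given in the sources used here, and Runx2 was not analysed here. Of 31 measured genes known as targets of RUNX1 and core-binding factor, 23 lay above the background level, beside 55.6% of all genes, and the median was 7.20. Their brightest were the granule genes Mpo, Ctsg and Ltf. Spn, the sialophorin of white cells, measured 9.41, 8.96, 9.47 and 9.40, Itgal, an integrin chain, 9.36, 9.35, 8.78 and 8.79, and the cytokine gene Il3 3.21 ± 0.12. Ranges of at least 1 occurred in 10 of the 29 targets above the median of all probe sets, beside 10.7% of all such genes, of which 6 were lower and 2 higher on arrays 2 and 3 of animal 2.

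Among 544 surface receptor and surface marker genes, 277 (50.9%) lay above the background level, beside 55.6% of all genes. The receptors of myeloid cytokines led the signalling receptors. Csf2rb, the shared beta chain of the GM-CSF and interleukin receptors, measured 12.26, 12.45, 11.16 and 11.14. Its paralog Csf2rb2, which serves interleukin signalling in mice, measured 10.92, 11.54, 9.65 and 9.56. Csf2ra, the GM-CSF receptor alpha chain, measured 8.92, 9.26, 8.92 and 8.76, and Csf3r, the receptor of granulocyte colony-stimulating factor, 9.0, 9.41, 8.53 and 8.51. The beta chains and Csf1r were lower on arrays 2 and 3 of animal 2, and the alpha chain had a range of 0.50. Csf2rb and Csf2rb2 are close paralogs and their probes may share signal. Of 14 cytokine and growth factor receptor genes, 11 lay above the background level, with a median of 8.07, the highest among the receptor classes.

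Pan-leukocyte surface genes were bright. Ly6e, a GPI-anchored protein, was the brightest with 11.83, 11.87, 12.28 and 12.31. Cd47, the signal that holds off phagocytosis, measured 11.68, 11.71, 11.97 and 12.03. Ptprc, which encodes CD45, measured 10.30, 10.59, 10.77 and 10.76. All 3 were above 10 on every array. Ly6e and Ptprc each had a range of 0.48, beside a median range of 0.44 over genes above the median of all probe sets. Itgb2, the shared chain of the leukocyte integrins, was the steadiest surface gene, between 10.38 and 10.44, and Itga4, an integrin chain of adhesion to VCAM1, stayed between 9.09 and 9.15. Cd44, the hyaluronan receptor, measured 10.15, 10.44, 9.88 and 9.88. A dimmer probe set of Cd44 had a wider range, with 8.52, 8.70, 6.65 and 6.62. Tfrc, the transferrin receptor of iron uptake, measured 11.17, 11.48, 10.32 and 10.31, in the same order as Alas2. Of 330 surface genes above the median of all probe sets, 76 (23.03%) had a range of at least 1, beside 10.7% of all such genes. Of these, 38 were lower and 22 higher on arrays 2 and 3 of animal 2. Cd69, an early activation marker, was among the widest, with 4.76, 5.18, 8.77 and 8.59.

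**Figure D3:**
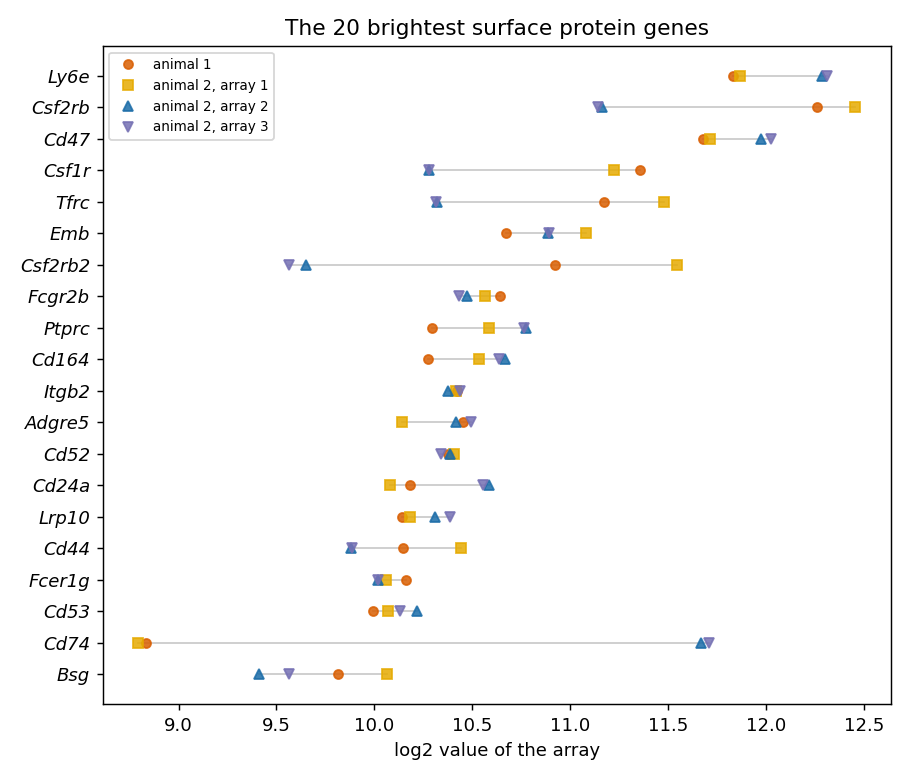
Log2 value on each of the 4 truncated arrays (x axis) for the 20 brightest surface protein genes (y axis, by mean); symbols stand for arrays and grey lines for their range. Cd74 spans 2.91 log2 units and Itgb2 0.06, and Csf2rb and Csf2rb2 lie lower on arrays 2 and 3 of animal 2.

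Genes of dividing cells were bright, and few had a range of at least 1, which 10.7% of all genes above the median of all probe sets had. Their median range was 0.37 for DNA replication and 0.41 for mitosis genes, near the 0.44 of all such genes. All 29 DNA replication genes measured lay above the background level, beside 55.6% of all genes. Their median was 8.85, and 0 had a range of at least 1. Pcna, the sliding clamp, measured 11.76, 11.95, 11.77 and 11.82, and Mcm7, of the replicative helicase, 11.45, 11.19, 11.20 and 11.25. Mitosis genes had a median of 8.82, and 1 of 29, the ubiquitin-conjugating enzyme gene Ube2c, had a range of at least 1. Mki67, the marker of cycling cells, measured 11.18, 10.92, 11.01 and 11.02. Ribosome biogenesis genes had a median of 8.59, all 25 above the background level, led by nucleolin (Ncl) at 11.65, 11.99, 11.96 and 11.96. Nop58, of the snoRNA-binding complex, was the only member of that list with a range of at least 1. Unfolded protein response genes had a median of 9.18, with all 24 above the background level and 2 with a range of at least 1. Hspa5, the chaperone BiP of the endoplasmic reticulum, measured 11.37, 11.08, 11.73 and 11.80.

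Variation over the arrays followed mostly 1 partition. Among the 11278 genes above the median of all probe sets, the range from lowest to highest array had a median of 0.44. It was at least 1 in 1210 genes (10.7%), at least 2 in 217 (1.92%) and at most 0.2 in 1474 (13.1%). In 908 of the 1210 genes (75.04%), the widest gap between neighbouring values parted arrays 2 and 3 of animal 2 from the other arrays. In 486 of these (4.31% of the genes tested) arrays 2 and 3 were lower, and in 422 (3.74%) they were higher. The array of animal 1 stood alone in 225 genes and array 1 of animal 2 in 62. Array 2 and array 3 of animal 2 stood alone in 6 and 9 genes. The remaining 2 of the 7 ways to part 4 arrays occurred in 0 genes. Without the array of animal 1, 752 genes had a range of at least 1, a range over 3 arrays being narrower by construction.

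**Figure D4:**
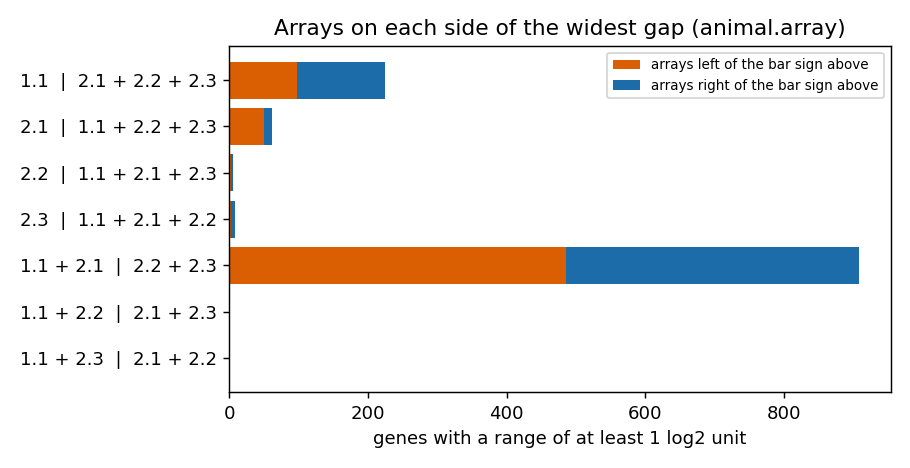
Number of genes with a range of at least 1 log2 unit over the 4 truncated arrays (x axis), by which arrays lay on each side of the widest gap (y axis, written animal.array); colours give the side that was higher. The bar of 908 genes parts arrays 2 and 3 of animal 2 from the other arrays, and the second longest, for the array of animal 1 alone, holds 225.

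The widest genes were of many kinds, 10 in each direction among the 20 widest. Antigen receptor genes, of which Ighm had a range of 6.13 with arrays 2 and 3 of animal 2 higher, and unnamed clones were left out of this ranking. Higher on the animal 1 array and array 1 of animal 2 was Arg1, the arginase of the urea cycle and of myeloid cells, with 9.10, 8.95, 3.76 and 4.06. The stefin A genes, inhibitors of cathepsins in neutrophils, ran with it, with 11.27, 11.63, 6.05 and 6.19 for Stfa3 and 11.57, 12.02, 7.39 and 7.29 for Stfa2l1. These genes are near copies of each other and their signals may be shared. Smo, the hedgehog signal transducer, measured 8.64, 8.22, 4.30 and 4.54, and Cldn13, a claudin, 8.77, 8.84, 5.04 and 4.86. Higher on arrays 2 and 3 of animal 2 was Tjp1, a tight junction scaffold, with 4.77, 3.73, 9.13 and 9.14. Tnni3, cardiac troponin I, measured 5.67, 5.46, 10.45 and 10.43. Slc15a2, a peptide transporter, measured 5.51, 5.25, 9.26 and 9.34, and Perp, a p53 effector, 4.73, 5.41, 8.88 and 8.80. In all of these genes the values of arrays 2 and 3 of animal 2 did not overlap those of the other arrays. They were chosen by their range over the same arrays, so this gap is part of the choice. The same partition held in 908 of the 1210 genes with a range of at least 1. Of the 20 widest genes, 5 had a further probe set, and in 3 of these it also had a range of at least 1 and parted the arrays the same way.

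**Figure D5:**
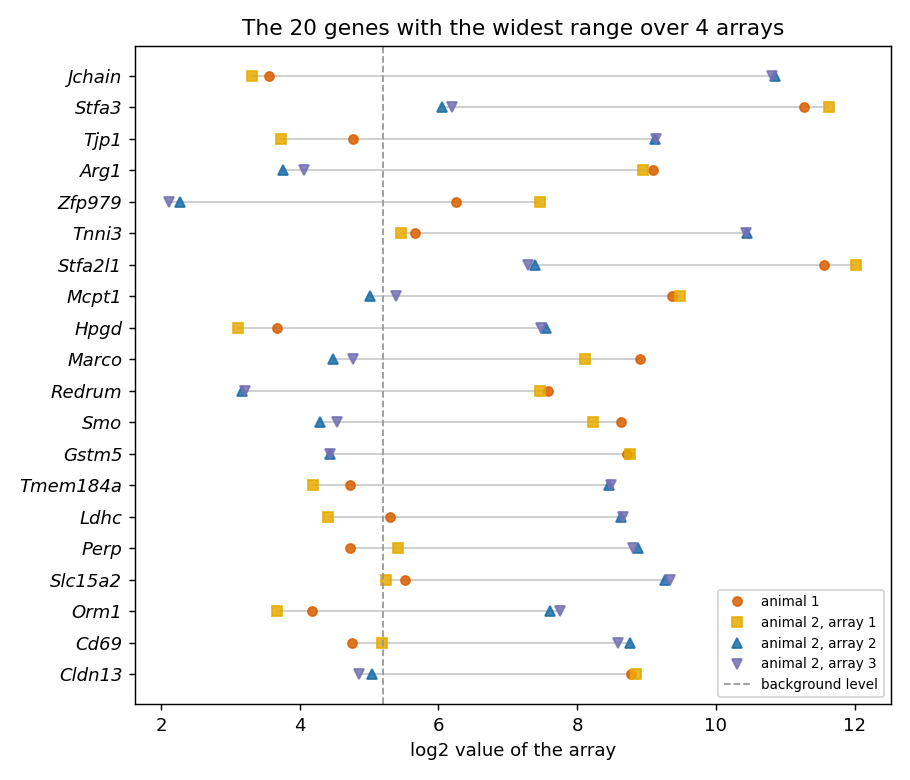
Log2 value on each of the 4 truncated arrays (x axis) for the 20 genes with the widest range among genes above the median of all probe sets, antigen receptor genes such as Ighm and unnamed clones left out (y axis, widest at the top); the dashed line is the background level of 5.20. In every gene shown, arrays 2 and 3 of animal 2 lie together, apart from the other arrays, from Jchain with a range of 7.53 to Cldn13 with 3.98.

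MHC class II genes, which present peptides to helper T cells, were high on arrays 2 and 3 of animal 2. Of the 8 above the median of all probe sets, 7 had a range of at least 1 with those arrays higher, a pattern that 3.74% of all such genes had. Cd74, the invariant chain, measured 8.83, 8.80, 11.67 and 11.71. H2-Aa, the class II alpha chain, measured 7.76, 7.05, 10.88 and 10.97, and H2-Eb1, a beta chain, 7.28, 7.01, 10.17 and 10.11. The promoters printed above held CTGATTGG at 51 and 62 bases before the starts of H2-Aa and H2-Eb1, and it stood in 3 of 7 class II promoters in the table. Ciita, the coactivator of these genes, measured 4.38, 4.42, 5.64 and 5.50, with a mean under the background level. H2-Oa, a chain of the class II modulator, ran the other way, with 7.88, 7.99, 7.34 and 7.28. The B cell and plasma cell medians were higher on the same arrays (5.48 and 5.51 against 4.66 and 4.42 for the B cell list), and their part in the class II values was not tested.

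Interferon response genes had a median of 5.57, near the 5.64 of all genes. Of 22 measured, 14 lay above the background level, beside 55.6% of all genes. Of the 18 above the median of all probe sets, 10 had a range of at least 1, all with arrays 2 and 3 of animal 2 higher, beside 3.74% of all such genes. Oas1a, which makes the activator of RNase L, measured 6.22, 6.50, 8.83 and 8.93. Usp18, which removes ISG15 and dampens the receptor, measured 4.01, 4.33, 6.22 and 6.33. Ifit2, a binder of viral RNA, stayed near level at 6.86, 6.43, 6.84 and 6.92. Not every interferon gene ran with the arrays.

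Immediate early genes, which cells switch on within minutes of a stimulus, had medians by array of 8.35, 8.65, 9.18 and 9.19. Of the 21 above the median of all probe sets, 11 had a range of at least 1, beside 10.7% of all such genes. Of these, 9 were higher and 1 lower on arrays 2 and 3 of animal 2. Egr1, a zinc finger factor, measured 8.34, 8.72, 10.78 and 10.85. Dusp1, a MAP kinase phosphatase, measured 9.64, 9.99, 11.26 and 11.25, and Zfp36, which speeds decay of cytokine transcripts, 8.94, 9.45, 11.00 and 10.99. Junb stayed between 8.33 and 8.40, and Btg2, an antiproliferative gene, ran the other way with 7.90, 8.19, 6.74 and 6.76.

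The 10 steadiest genes above the 90th percentile included regulators of signalling and translation. Inpp5d, the phosphatase SHIP1 of blood cells, lay between 10.42 and 10.43 on all 4 arrays. Alox5ap, which activates leukotriene synthesis, lay between 11.81 and 11.84, and Hdac1, a histone deacetylase, between 9.82 and 9.85. The ribosomal protein genes Rps4x, Rps20 and Rpl8 each had a range of 0.04. Sex-linked genes were checked on each array. Xist, transcribed from the inactive X, measured 5.17, 5.38, 6.03 and 5.95, near the background level, by a probe set that can match related sequences. The Y-linked Eif2s3y measured 8.45, 8.56, 8.99 and 8.86, Kdm5d 5.89 ± 0.48 and Uty 6.06 ± 0.31. Eif2s3y was thus above the background level on all 4 arrays of both animals. Nnt, a mitochondrial transhydrogenase that some mouse strains lack, measured 8.51, 8.88, 8.34 and 8.23.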

How the data were processed

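Total RNA of spleen cells was hybridised to Affymetrix mouse arrays, per the labels' protocols. The deposited table held log2 values of 45101 probe sets on 8 arrays. The authors used RMA, per the submitters' processing notes, which corrects background, makes the arrays' distributions equal and summarises each probe set, so arrays share 1 distribution and dim values are drawn together. That the values are in base 2 was taken from their span. Array medians lay between 4.75 and 4.78. The platform annotation gave 34945 probe sets with 1 gene, 932 with several and 9160 with none, with 64 controls apart; those with 1 gene were used. Of 18194 gene identifiers, 18032 were found in the GRCm38.p6 table. A gene stands for its probe set with the highest mean. Means, ranks and ranges were computed with Python 3.11.15, numpy 2.4.6 and pandas 2.3.3. The range calculation was also run on simulated arrays with little noise and shifts set above 1 log2 unit. That run checks the code and not the data.

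Members, lists and tests were chosen with earlier results of these data known. The rule named 225 genes: those of the fusion and sex chromosomes, the 25 brightest genes apart from ribosomal protein genes, the 20 brightest transcription factor and surface genes, the defining and 4 brightest members of each list, the 20 widest genes, the 10 steadiest, and the 5 widest and 5 steadiest transcription factor and surface genes. Probe sets that can match related sequences stand for 35 of them. Chosen after their values were seen were Alas2, Btg2, Cebpa, Cebpb, Cma1, Csf2ra, Csf3r, Cst7, Cx3cr1, Cxcr2, Egr1, Fn1, Gzmb, H2-Oa, Il3, Irf8, Itgal, Junb, Mcpt2, Mcpt4, Mmp9, Ms4a3, Nop58, Padi4, Pou2af1, Rhag, Slc40a1, Slc4a1, Sox4, Spn, Tpsab1, Tpsb2, Ube2c, Usp18 and Zfp36. The full-length arrays entered only the choice of probe set by the mean over all 8 arrays, an alternative.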

Additional observations from a re-analysis of the deposited data

Results flagged for a closer look

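In 9 of the 225 named genes and 1 of 29 list medians, a lone array stood apart from the other 3. Its gap divided by the whole range was above Dixon's 95% critical value. That value holds for independent values, but arrays 2 and 3 of animal 2 were nearly alike, and some genes were named by their range. The count of 10 in all was therefore not set against a chance rate. The array of animal 1 was low for Calr (11.56, ratio 0.836), Eef2 (12.10, ratio 0.892), Ncl (11.65, ratio 0.914) and Txndc5, a disulfide isomerase of the endoplasmic reticulum (8.51, ratio 0.911). It was high for the median of the secondary and tertiary granule list (10.48, ratio 0.911). Array 1 of animal 2 was high for Tal1 (9.88, ratio 0.863) and Tfdp1, the partner of E2F factors (10.15, ratio 0.891), and low for Ifit2 (6.43, ratio 0.831). Array 2 of animal 2 was low for Cnot6l (9.64, ratio 0.932), whose range was 0.03, and array 3 was high for Cdh5 (4.19, ratio 0.831), which lay under the background level.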

How the results depend on the processing

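No paired analysis was possible because 1 genotype was described alone and no test was made. Of 81 counts and medians of lineage lists under alternatives other than leaving out arrays, 14 moved. A list median was called moved where it changed by at least its SD over the 2 animals. The 10118 genes above the background level became 8763 with the median over all probe sets of a gene. They became 7864 with the level at the 99th percentile of the background families. Neither change was large enough to be called moved. With the median over all probe sets of a gene, the medians were 10.54 (primary granule), 9.72 (secondary and tertiary granule), 8.73 (monocyte), 5.18 (dendritic cell), 6.34 (stem and progenitor), 8.76 (erythroid), 3.77 (T cell) and 4.17 (endothelium and stroma), since dimmer probe sets then count. Among the function lists they were 8.34 (unfolded protein response), 8.09 (mitosis) and 8.13 (ribosome biogenesis). Without probe sets that can match related sequences they were 6.34 (basophil and mast cell) and 4.81 (endothelium and stroma), and 8.73 (unfolded protein response), 8.70 (mitosis) and 8.52 (ribosome biogenesis). With the plain mean of the arrays they were 6.42 (stem and progenitor) and 7.33 (RUNX1 and CBF target), and with the probe set brightest over all 8 arrays 8.55 (ribosome biogenesis). With no filter, 2740 genes had a range of at most 0.2. Above the 75th percentile 953 had one, and 625 had a range of at least 1.

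Leaving out each array in turn gave 10064 to 10165 genes above the background level, 752 to 1073 with a range of at least 1 and 1996 to 3786 with a range of at most 0.2. The lowest count of wide genes, 752, and the highest of steady genes, 3786, came without the array of animal 1; without array 1 of animal 2 there were 2959 steady genes. The list medians then ran from 11.06 to 11.13 (primary granule), 10.07 to 10.29 (secondary and tertiary granule), 9.09 to 9.44 (monocyte), 7.27 to 7.63 (splenic macrophage), 5.53 to 5.85 (dendritic cell), 6.36 to 6.66 (stem and progenitor), 3.75 to 4.08 (eosinophil), 6.49 to 6.68 (basophil and mast cell), 9.02 to 9.37 (erythroid), 5.77 to 5.99 (megakaryocyte and platelet), 4.72 to 5.32 (B cell), 5.70 to 7.31 (plasma cell), 4.40 to 4.63 (T cell), 4.31 to 4.48 (NK cell), 4.79 to 5.05 (endothelium and stroma) and 7.69 to 7.97 (MHC class II). Of the 20 brightest transcription factor genes, 14 were shared with the median over probe sets and 15 without the array of animal 1. Signal near the background level limits what dim genes can show.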

Other observations

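Genes with a range of at least 1 over the 4 arrays were spread over the chromosomes. Chromosome 18 had the highest share among the autosomes, 34 of 269 genes (12.6%), and chromosome 12 the lowest, 31 of 391 (7.93%). The X chromosome had 17 of 295 (5.76%). By level, the share was 15.2% among 2820 genes from 5.91 to 7.17 and 7.27% among the 2819 brightest, from 8.34 up. No test was made of these shares.

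Redrum, a noncoding RNA of red cells, measured 7.57, 7.46, 3.17 and 3.22, lower on arrays 2 and 3 of animal 2 as the erythroid genes Alas2 and Rhag were. Gstm5, a glutathione transferase, measured 8.72, 8.76, 4.44 and 4.43. Pparg, a nuclear receptor of fat cells and macrophages, measured 7.15, 6.42, 4.37 and 4.50, and Hpgd, which inactivates prostaglandins, ran the other way with 3.67, 3.11, 7.55 and 7.48.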
